A study of Mus musculus with 2 samples.

Results

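A group of 8 genes of collagen maturation were followed across the cells of 2 retinal libraries. They were chosen by symbol and comprise P4ha1, P4ha2 and P4hb, which build prolyl 4-hydroxylase; Plod1, Plod2 and Plod3, the lysyl hydroxylases; Serpinh1, the collagen chaperone HSP47; and Col27a1, a fibrillar collagen chain. These 8 of the 31053 genes in the files were picked with earlier values of the same contrast known, so what follows is a description. Mice of both groups were wild type, of strain C57BL/6 and 17 days old, and each library pooled the retinas of 6 of them. The control library is labelled as control. For oxygen-induced retinopathy (OIR), pups and nursing mother had been kept in 75% oxygen from day 7 to day 12 after birth and then in room air. Both suspensions were selected with CD11b beads, which bind a surface integrin of myeloid cells. With 1 library per group there was no replicate, so no test was made and every interval covers counting error only.

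Collagen chains are hydroxylated inside the endoplasmic reticulum before they fold into a triple helix. Prolyl 4-hydroxylase stabilises the helix, lysyl hydroxylases prepare lysines for sugars and cross-links, and both enzyme families need molecular oxygen, iron, 2-oxoglutarate and vitamin C. P4ha1 and P4ha2 are known as genes that the hypoxia-inducible factors switch on in many cell types, and OIR is a standard model in which oxygen-grown retina lacks vessels and becomes hypoxic in room air.

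Unique molecular identifiers (UMIs, 1 tag per captured RNA molecule) summed to 50081145 in the control and 49773742 in the OIR library. After filtering, 8583 and 6136 cells were left, with medians of 1654 and 2810 UMIs, and 28 barcodes occurred in both. Although the label was retinal microglia, cells carrying microglia markers were 852 (9.93%) and 649 (10.6%), and 6651 and 3573 cells carried rod markers. Cells with Müller glia markers were 262 and 403, cells with bipolar markers 268 and 474 and cells with cone markers 291 and 600. These classes are called microglia-like, rod-like and so on below, and levels are counts per 1000000 UMIs of the class (CPM).

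The region around each transcription start was read for the 5-base core that hypoxia-inducible factors recognise, ACGTG or GCGTG on either strand. RefSeq promoters (GRCm38.p6, 250 bases before to 50 after the start) were in hand for 7 of the 8 genes, all but Plod2. The sequences of P4ha2, with the highest measured OIR to control ratio of the 8 in microglia-like cells, of its partner P4ha1 and of Col27a1, with the lowest ratio, are shown 5′ to 3′ along the gene, with each match in capitals.
P4ha1, chr10:59323046-59323345, plus strand: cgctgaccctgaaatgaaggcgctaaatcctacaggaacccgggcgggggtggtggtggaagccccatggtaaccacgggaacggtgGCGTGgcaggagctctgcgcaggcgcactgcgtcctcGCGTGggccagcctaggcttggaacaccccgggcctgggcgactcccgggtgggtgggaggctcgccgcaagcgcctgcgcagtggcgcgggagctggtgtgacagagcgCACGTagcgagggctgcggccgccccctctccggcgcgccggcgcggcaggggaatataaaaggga
P4ha2, chr11:54100674-54100973, plus strand: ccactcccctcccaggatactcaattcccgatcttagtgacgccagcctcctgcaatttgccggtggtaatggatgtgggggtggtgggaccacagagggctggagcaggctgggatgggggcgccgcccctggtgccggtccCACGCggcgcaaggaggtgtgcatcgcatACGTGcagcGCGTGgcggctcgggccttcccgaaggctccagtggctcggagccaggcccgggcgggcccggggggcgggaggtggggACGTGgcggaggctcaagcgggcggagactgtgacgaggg
Col27a1, chr4:63215162-63215461, plus strand: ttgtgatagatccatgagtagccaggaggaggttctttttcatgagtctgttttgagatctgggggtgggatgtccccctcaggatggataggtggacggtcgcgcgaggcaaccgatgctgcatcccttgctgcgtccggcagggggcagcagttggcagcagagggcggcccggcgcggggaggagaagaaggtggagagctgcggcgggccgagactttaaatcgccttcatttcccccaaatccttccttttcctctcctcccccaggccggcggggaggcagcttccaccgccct
P4ha2 and Plod3 held 4 matches each, P4ha1 and P4hb 3, Plod1 2, Serpinh1 1 and Col27a1 0. Of 32851 promoters of the same length, 43.8% held at least 1 match, 8.93% at least 3 and 3.86% at least 4. Those promoters were not matched for their share of G and C bases. Among the 7 genes that share ran from 53.3% (Plod3) to 70.3% (P4ha1 and P4ha2), and its part in the counts was not tested. The count of matches did not order the genes by their ratio: Plod3 held as many as P4ha2 and was lower in the OIR library. A match is a run of letters and no measure of binding.

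In microglia-like cells P4ha2 and P4hb were at least 2-fold higher and Col27a1 at least 2-fold lower in the OIR library, and the other members differed less or were hardly detected. A gene was counted as 2-fold apart when it reached 20 CPM in 1 library, differed at least 2-fold, and had a 95% interval of the ratio excluding 0 on the log2 scale. By that rule 2 of 6 members with enough counts were higher and 1 was lower. Over all 6073 genes at that level, 4.99% were higher and 5.29% lower, with a median log2 ratio of -0.12. The plots of levels and of ratios by class show all 8 genes.

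**Figure D1:**
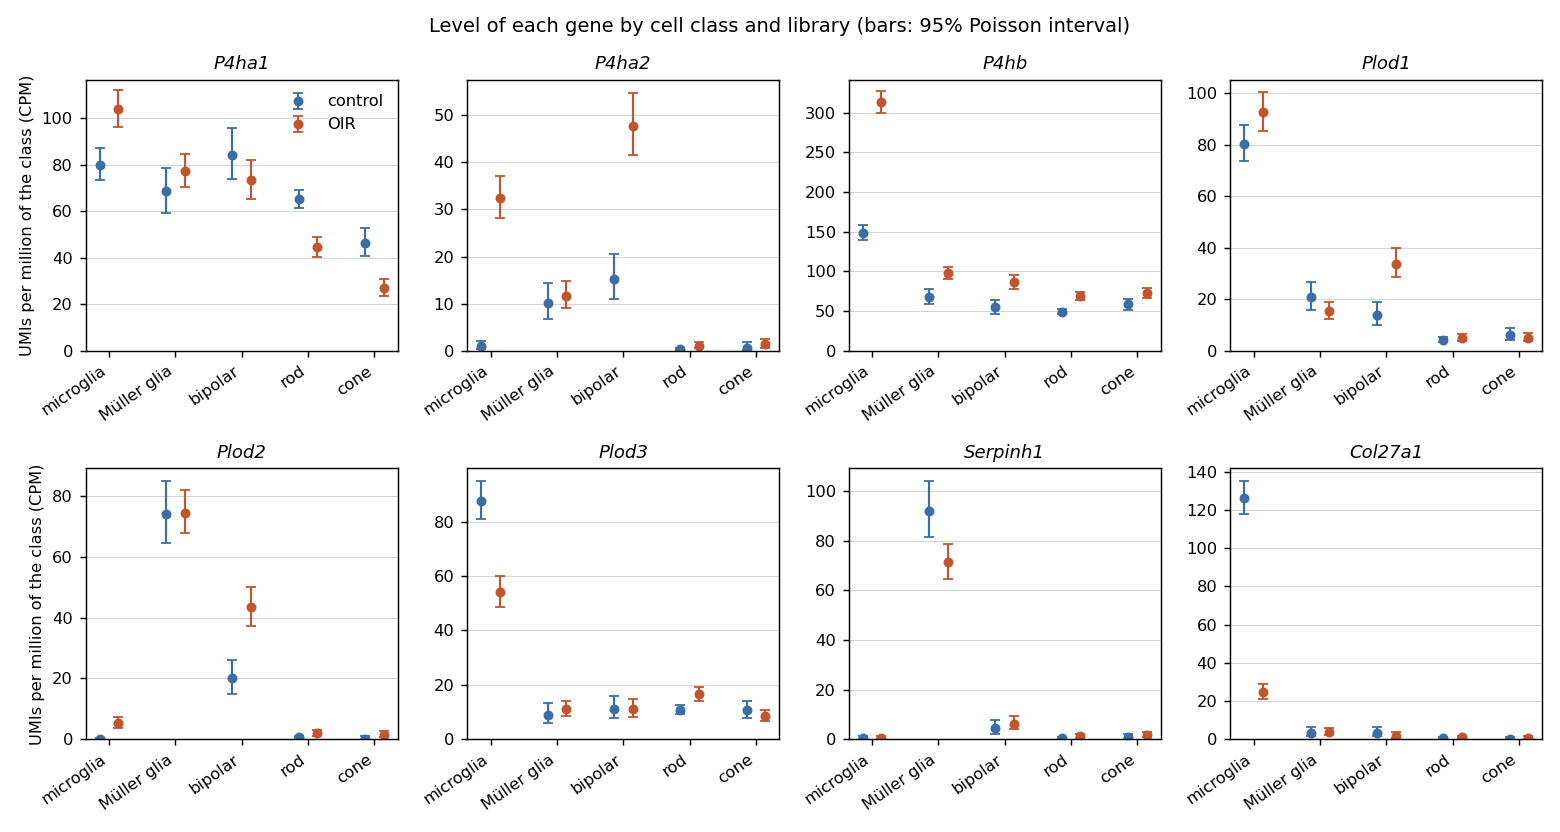
Each panel plots 1 gene: UMIs per 1000000 of the class (linear axis from 0, scale differing between panels) in 5 cell classes, blue for the control and orange for the OIR library, bars the exact 95% Poisson interval of the count. P4hb reached 313 CPM and Col27a1 126 CPM in 1 library of microglia-like cells, whereas Plod2 and Serpinh1 lay highest in Müller glia-like cells.

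**Figure D2:**
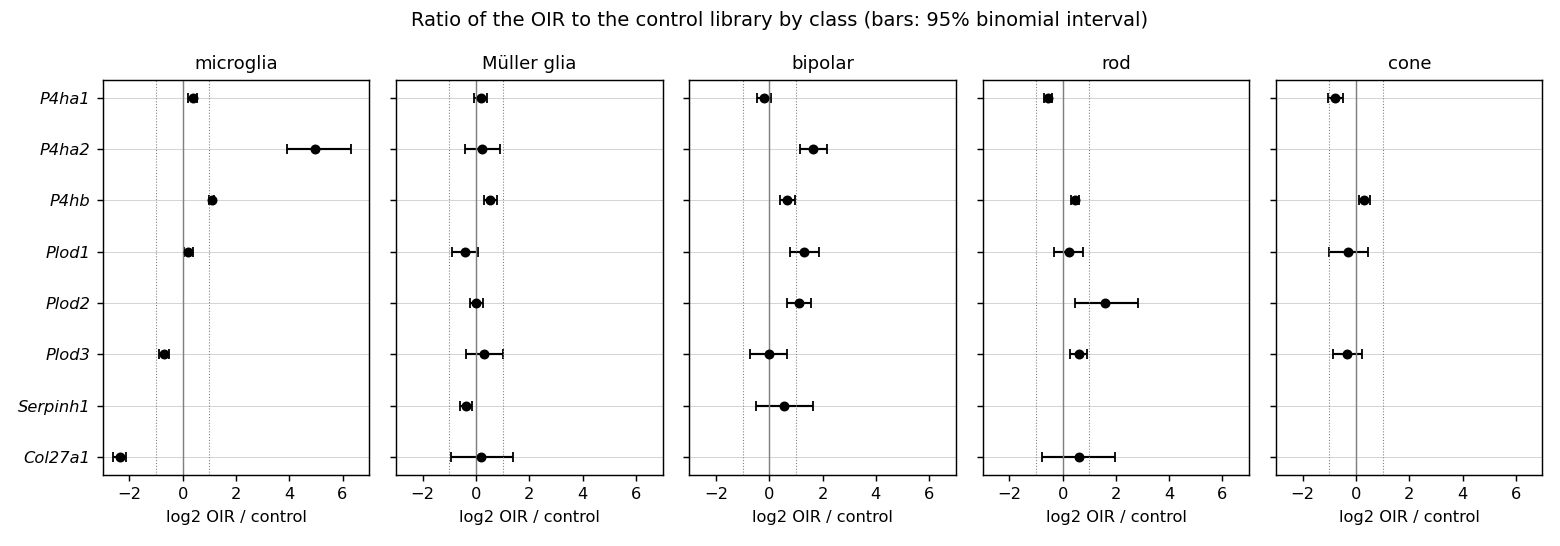
Points give the log2 ratio of the OIR over the control library for each gene (vertical axis) in 5 classes, with exact 95% binomial intervals, and dotted lines mark a 2-fold difference. Genes at 0 in 1 library or with fewer than 20 UMIs in both together are not drawn. Microglia-like cells span 4.97 for P4ha2 to -2.36 for Col27a1.

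P4ha1 encodes the widely expressed catalytic subunit of prolyl 4-hydroxylase. In microglia-like cells it stood at 80.1 CPM (95% Poisson interval 73.5 to 87.1, 542 UMIs) in the control and 104 CPM (96.3 to 112, 672 UMIs) in the OIR library, a log2 ratio of 0.38 (binomial interval 0.21 to 0.54). Without the Mmp12-led state described below the log2 ratio was -0.45. In rod-like cells P4ha1 was lower in OIR, 44.5 against 65.4 CPM (log2 ratio -0.55, -0.72 to -0.39). The rod-like cells were spread over clusters in unequal shares between libraries. One led by Edn2 and Fgf2 held 84 control and 1229 OIR cells and one led by Vax2os and Itga4 held 43 and 386. The other rod clusters held 6524 and 1958 cells, most of each library, and in them the log2 ratio was -0.80 (-1.02 to -0.59). Cone-like cells gave 27.1 against 46.4 CPM (-0.78, -1.06 to -0.50). Müller glia-like cells, at 68.6 and 77.4 CPM, and bipolar-like cells, at 84.3 and 73.4 CPM, had ratio intervals that included 0. The share of microglia-like cells with a P4ha1 UMI was 39.8% and 39.0%, and 12.7% (10.5 to 15.3) and 10.8% (8.36 to 13.7) after each cell was thinned to 1500 UMIs, so the higher OIR level was not seen in these shares.

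P4ha2, the second catalytic subunit, was almost unseen in control microglia-like cells, with 7 UMIs (1.03 CPM, 0.416 to 2.13). The OIR library held 209 UMIs, or 32.4 CPM (28.1 to 37.1). That is a log2 ratio of 4.97 (3.90 to 6.30), the intervals lying far apart. After each cell was thinned to 1500 UMIs, 0.126% of 793 control and 3.89% of 565 OIR microglia-like cells had a P4ha2 UMI, and unthinned the shares rested on median depths of 6636 and 6146 UMIs. Rod-like cells had medians of 1400 and 1483 UMIs, and in the 2905 and 1759 that reached 1500 UMIs the thinned shares were 0.0344% and 0.171%. Whether RNA carried over from other cells added to the microglia-like share was not tested. Bipolar-like cells also had more P4ha2 in OIR: 47.8 CPM (41.5 to 54.9) against 15.3 CPM, log2 ratio 1.65 (1.16 to 2.16). Müller glia-like cells held 10.0 and 11.7 CPM, a log2 ratio of 0.22 whose interval ran from -0.43 to 0.90. Rod-like and cone-like cells had at most 1.33 CPM.

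P4hb, protein disulfide isomerase, is the second subunit of prolyl 4-hydroxylase and also a general folding enzyme. In microglia-like cells it stood at 148 CPM (139 to 158) in the control and 313 CPM (300 to 327) in the OIR library, log2 ratio 1.08 (0.97 to 1.19). Every other described class, summed whole, was also higher in OIR, each by less than 2-fold. The log2 ratios were 0.66 (0.38 to 0.95) in bipolar-like, 0.53 (0.29 to 0.77) in Müller glia-like, 0.48 (0.33 to 0.62) in rod-like (0.45 outside the OIR-rich rod clusters) and 0.31 (0.11 to 0.52) in cone-like cells. None of these intervals reached 0. The microglia-like value depended on which OIR cells were counted, and with doublets kept, which left a cluster with Mmp12 and Spp1 among its leading genes unnamed, it was -0.054.

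Plod1, a lysyl hydroxylase of helical lysines, stood at 80.5 and 92.8 CPM in control and OIR microglia-like cells, log2 ratio 0.20 (0.03 to 0.37). Bipolar-like cells were more than 2-fold higher in OIR, with 13.8 CPM (9.77 to 19.0) in the control and 33.8 CPM (28.5 to 39.7) in the OIR library. Under the stricter cell filter, with 9 and 48 UMIs left, the bipolar-like log2 ratio was 0.39 and its interval included 0. Müller glia-like cells had 20.8 and 15.4 CPM, an interval of -0.92 to 0.06.

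Plod2, which hydroxylates lysines of the chain ends, was not seen in control microglia-like cells. A floor of 3 counts in the 6768204 UMIs there is 0.443 CPM, and the exact Poisson limit of a count of 0 is 0.545 CPM. The OIR library held 34 UMIs (5.27 CPM, 3.65 to 7.36), at least 11.9-fold higher than that floor, with a lower limit of the log2 ratio of 3.19. Thinned, 0.885% of OIR microglia-like cells (0.288 to 2.05) and 0.227% of OIR rod-like cells (0.0620 to 0.581) had a UMI, and these intervals overlap. Plod2 belonged mainly to Müller glia-like cells, which held 64.3% of its control UMIs and 52.3% of its OIR UMIs. Levels there were 74.1 CPM (64.5 to 84.8) and 74.5 CPM (67.7 to 81.8), a log2 ratio of 0.01 (-0.23 to 0.25), although under a stricter cell filter it was -0.71 on 30 control and 205 OIR UMIs. In bipolar-like cells the gene read 19.98 and 43.4 CPM, log2 ratio 1.12 (0.68 to 1.58).

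Plod3, which also transfers sugars to hydroxylysine, was lower in OIR microglia-like cells, at 54.2 CPM (48.7 to 60.2) against 87.8 CPM (80.8 to 95.1). The log2 ratio was -0.70 (-0.89 to -0.50), short of 2-fold. Rod-like cells as a whole read 16.5 against 10.9 CPM (0.60, 0.29 to 0.91), but in the rod-like cells outside the OIR-rich clusters the log2 ratio was 0.29 and its interval (-0.12 to 0.68) included 0. The Edn2 and Fgf2-led rod cluster held 1 and 78 UMIs of Plod3, with an interval of -0.28 to 7.56. In the remaining classes the intervals included 0. Plod3 overlaps Znhit1 on the opposite strand, which held 277 and 418 UMIs in microglia-like cells. The strand setting of the counting was not stated, so the share of reads that could pass between both genes was not tested.

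Serpinh1 gave 3 UMIs in each library of microglia-like cells, 0.443 and 0.465 CPM, too few for any comparison. In Müller glia-like cells it stood at 92.2 CPM (81.4 to 104) in the control and 71.4 CPM (64.8 to 78.6) in the OIR library, log2 ratio -0.37 (-0.59 to -0.14). Bipolar-like cells held 4.36 and 6.33 CPM. The highest levels were in a small cluster led by Cldn5 and Rgs5 that had endothelial and pericyte markers together and was left unnamed, with 47 control and 16 OIR cells. There Serpinh1 reached 478 CPM (428 to 532) and 1119 CPM (1019 to 1226), Plod1 132 and 211 CPM, and the basement membrane chain Col4a1 1788 and 5442 CPM. With so few cells, and no named class, no ratio was taken.

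Col27a1 was close to a microglia gene in the control library, where microglia-like cells held 92.4% of its UMIs but 17.5% of all UMIs of kept cells. It stood at 126 CPM (118 to 135, 854 UMIs) in the control and 24.6 CPM (20.9 to 28.8, 159 UMIs) in the OIR library, log2 ratio -2.36 (-2.61 to -2.11). Thinned shares of cells with a UMI were 15.4% and 3.54%, beside 0.0344% and 0.341% in rod-like cells. All other described classes stayed at or under 3.89 CPM in both libraries. Small groups outside them held the gene: neutrophil-like cells with 26 UMIs (107 CPM) in the control and 7 UMIs (10.8 CPM) in the OIR library, and an unnamed cluster led by Calb1 with 0 and 20 UMIs.

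The make-up of the microglia-like cells differed strongly between libraries. Clustered again without the members and without the collagen lists, they fell into 5 states. Names were given from marker scores and do not mark the first-ranked gene. A state called Tmem119-led, after a gene of resting microglia, scored highest for resting markers. It held 555 control and 59 OIR cells. One called Mmp12-led, after a macrophage protease, scored highest for disease-associated markers and held 25 and 260 cells. Haemoglobin genes ranked first among its leading genes, which also included Mmp12, Hmox1, Lgals3 and Spp1. A shallow state led by ribosomal genes and Cst7 held 132 and 212 cells, a state with rod RNA 138 and 99, and a cycling state 2 and 19. The plot of levels by state gives 6 of the genes in the 4 larger states.

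**Figure D3:**
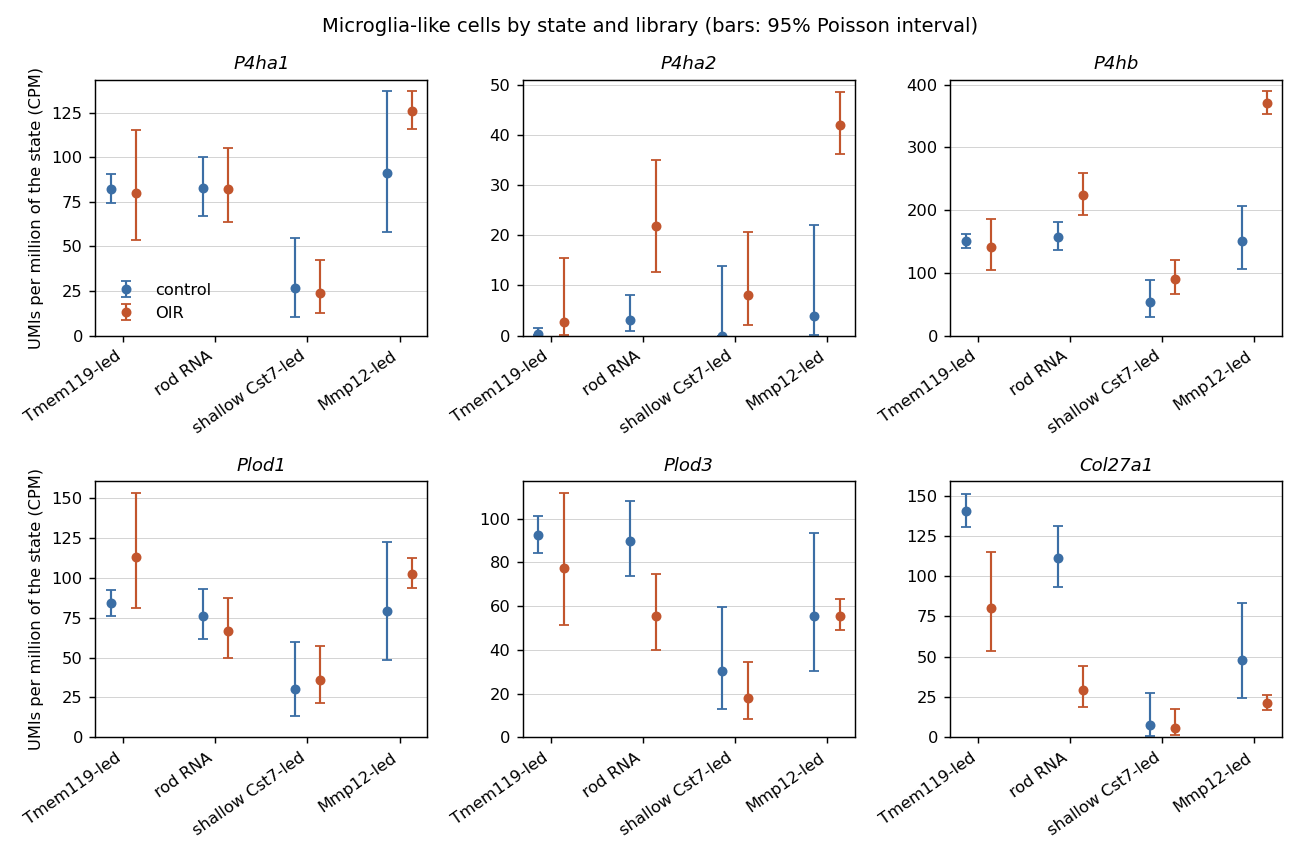
UMIs per 1000000 of the state (linear axis from 0) for 6 genes in 4 states of microglia-like cells, blue for the control and orange for the OIR library, bars the exact 95% Poisson interval. Within the Tmem119-led state P4hb read 150 and 141 CPM, and in the Mmp12-led state 151 and 371 CPM.

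Most P4ha2 UMIs of OIR microglia-like cells, 184 of 209, lay in the Mmp12-led state. The Mmp12-led state also held 4369699 of the 6457691 UMIs of all genes in these cells. That state read 42.1 CPM (36.2 to 48.7) in OIR and 1 UMI in the control, and the rod RNA state 21.9 CPM (12.7 to 35.01) against 3.20 CPM (0.872 to 8.20). In the Tmem119-led state both libraries were near 0, with 2 and 1 UMIs. P4hb likewise did not differ beyond its interval in the Tmem119-led state (log2 ratio -0.09, -0.53 to 0.32). It was higher in OIR in the rod RNA state (0.51, 0.20 to 0.81) and in the Mmp12-led state (1.30, 0.84 to 1.80). Without the Mmp12-led state the P4hb log2 ratio over all microglia-like cells was 0.37, and the 2-fold call was gone.

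P4ha1 gave the same level in both libraries in the Tmem119-led state, 82.1 and 80.1 CPM, and in the rod RNA state, 82.4 and 82.3 CPM. The Mmp12-led state read 91.4 CPM (57.9 to 137) and 126 CPM (116 to 137), with overlapping intervals. Plod1 had ratio intervals that included 0 in all 4 states. Plod3 differed beyond its interval in 1 of them, the rod RNA state (-0.70, -1.24 to -0.18), and in the Mmp12-led state read 55.6 CPM in both libraries.

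Col27a1 differed within states as well as between them. It was lower in OIR in the Tmem119-led state, 80.1 CPM (53.7 to 115) against 140 CPM (130 to 151), log2 ratio -0.81 (-1.40 to -0.27). Thinned shares there were 18.8% (15.6 to 22.3) and 16.1% (7.62 to 28.3) of cells with a UMI at 1500 UMIs a cell, and these overlap. At 2500 UMIs they were 28.7% (25.0 to 32.7) and 19.2% (9.63 to 32.5), which overlap too. At 1000 UMIs they were 13.9% (11.2 to 17.1) and 1.72% (0.044 to 9.24), which do not, with 1 OIR cell holding a UMI. The rod RNA state gave 29.6 against 111 CPM (-1.91, -2.61 to -1.27) and the Mmp12-led state 21.3 against 47.7 CPM (-1.16, -2.04 to -0.16). The shallow state held 2 and 3 UMIs. With states weighted alike in both libraries the log2 ratio was -1.01, against -2.36 for the plain sum. Col27a1 ranked first among the 10 leading genes of the Tmem119-led state, although it was kept out of the clustering.

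Markers of other cells moved with these values. Erythroid markers summed to 5.61 CPM in control and 5042 CPM in OIR microglia-like cells, with Alas2 and Slc4a1 among those at 0 in the control. The 10 markers of border macrophages summed to 118 CPM, with F13a1, Cd163 and Lyve1 at 0, and 388 CPM, with none at 0. Rod markers summed to 2385 and 2719 CPM. Their part in the results was not tested. Of fibroblast markers, Dcn, Lum, Col1a1 and Col1a2 were at 0 in both libraries of microglia-like cells. The separate border macrophage-like cells, 5 and 78 in number, held in OIR 219 CPM of P4hb and 11.7 CPM of P4ha2 and had 1 UMI of Col27a1.

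In Müller glia-like cells none of the 5 members with enough counts was 2-fold apart, while 3.38% of 6890 genes were higher and 5.27% lower. Rod-like cells had 2 members with enough counts, P4ha1 and P4hb, and neither was 2-fold apart, against 1.26% of genes higher and 0.183% lower. In cone-like cells the same 2 were measured and neither was 2-fold apart, against 0.721% and 0.199%. In bipolar-like cells P4ha2, Plod1 and Plod2 were higher among 5 members measured, and none lower, against 1.39% of 7170 genes higher and 1.14% lower. Their shares of cells with a UMI, thinned to 1000, 1500 or 2500 UMIs, were also higher in OIR. The intervals of these shares overlapped for all 3 genes at each depth. At 1500 UMIs P4ha2 gave 3.01% (1.31 to 5.84) in the control and 6.02% (4.04 to 8.59) in OIR. The intervals of P4hb, under 2-fold by level, did not overlap at any of these depths.

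The bipolar-like cells came from clusters of unequal share, one led by Pcp2 with 63 and 231 cells and one led by Scgn with 205 and 243. Within the Scgn-led cluster P4ha2 read 17.8 and 57.2 CPM (log2 ratio 1.68, 1.19 to 2.21), Plod1 13.1 and 33.7 CPM (1.36, 0.76 to 1.99) and Plod2 22.9 and 46.3 CPM (1.02, interval above 0.55). The Pcp2-led cluster had 0 and 36 UMIs of P4ha2, at least 3.55-fold higher than the 3-count floor, and 1 and 49 of Plod2. Plod1 there had 7 and 45 UMIs and an interval that included 0 (0.93, -0.23 to 2.32), and P4hb was 2-fold apart in this cluster (33.1 and 83.6 CPM, 1.34, 0.50 to 2.29). P4ha1 was lower in OIR there, at 76.9 CPM (62.7 to 93.3) against 130 CPM (96.8 to 171). Erythroid markers summed to 5.81 and 2480 CPM in bipolar-like cells and rod markers to 10710 and 6056 CPM, and their part in these values was not tested.

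Other genes of collagen making gave few large differences in microglia-like cells. Of 13 further modification genes 3 had enough counts. P3h2, a prolyl 3-hydroxylase, was lower (25.3 and 9.60 CPM, log2 ratio -1.40), the cyclophilin Ppib had 0.25 and the galactosyltransferase Colgalt1 0.03. Of 22 genes for secretion, trimming and cross-linking, 7 were measured and none was 2-fold apart, with Sparc at -0.60, Furin at 0.56 and Mia2 at -0.50. Their median was -0.09, near the -0.12 of all genes. Among 43 other collagen chains only Col15a1 reached 20 CPM, and it was lower in OIR (27.2 and 8.52 CPM, -1.67). Type I and III chains were all but missing, with Col1a1 and Col1a2 at 0 UMIs in both libraries and Col3a1 at 0 and 1.

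Proteins that carry a collagen-like domain are further substrates of these enzymes. The complement chain C1qa, at 7361 and 6979 CPM, had a log2 ratio of -0.08 and C1qb of -0.06. Msr1, a scavenger receptor, was the 1 of 4 measured that was 2-fold apart, from 2.22 to 26.5 CPM (log2 ratio 3.58). Of 21 folding partners of P4hb in the endoplasmic reticulum 16 were measured. Ero1l, the oxidase that recharges protein disulfide isomerase, was higher (88 and 619 UMIs, 2.88), the chaperone partner Dnajb9 was lower (-1.02), Sdf2l1 stood at 0.79, and the list median was 0.16.

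Other oxygenases that use 2-oxoglutarate and iron split in the same cells. Egln3 and Egln1, which hydroxylate the hypoxia-inducible factors themselves, had log2 ratios of 4.32 and 1.45, and the other 5 of 7 measured were under 2-fold, with Asph lowest at -0.79. Of 7 measured genes for iron and vitamin C supply 3 were higher: the ferritin chains Ftl1 (1.86) and Fth1 (1.51), and Gsto1 (1.07). Hypoxia genes listed for comparison were higher for 9 of 13, led by Vegfa (3.57), Ankrd37 (3.44) and Bnip3 (2.93), median 1.68. The ratio interval of P4ha2 (3.90 to 6.30) overlapped that of Vegfa (2.91 to 4.31). It lay above those of all other measured genes of that hypoxia list, among them Ankrd37 (3.06 to 3.85) and Bnip3 (2.74 to 3.13). Egln3, which is not on that list, had an interval (3.79 to 4.89) that overlapped that of P4ha2. P4ha1, at 0.38, had a ratio below the list median.

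**Figure D4:**
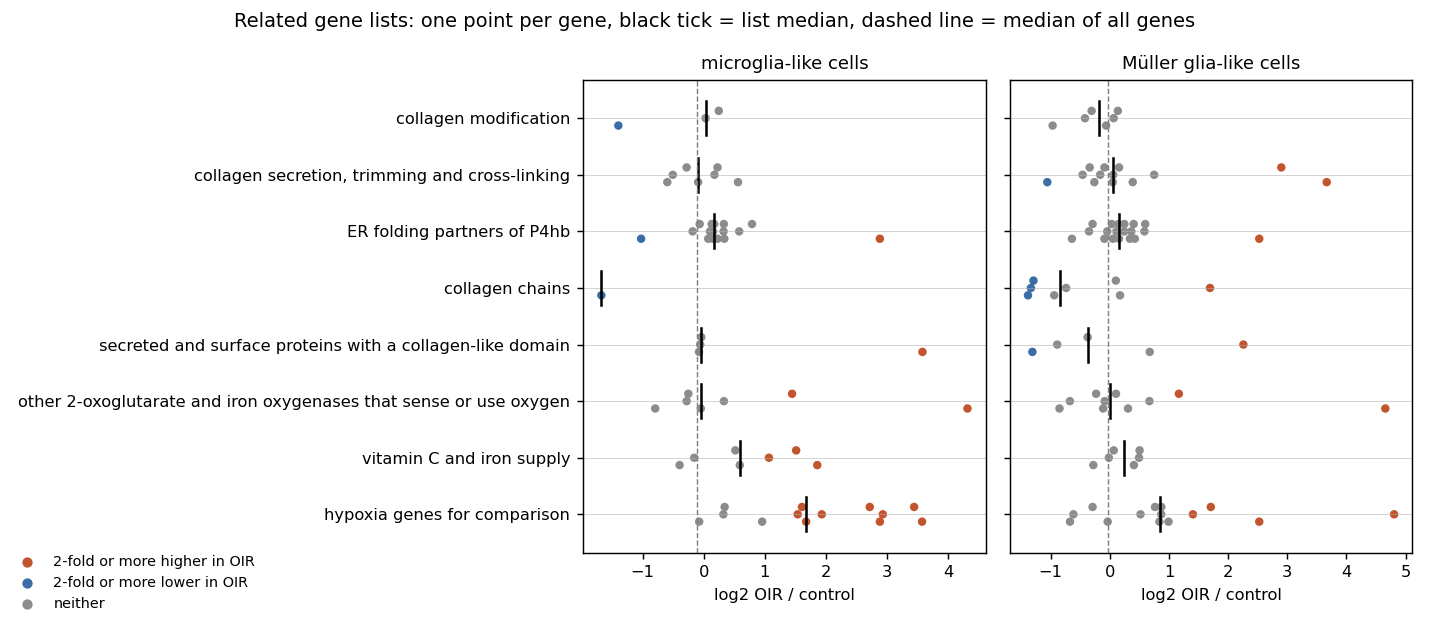
Log2 ratio of the OIR over the control library for each gene of the 8 lists with at least 20 CPM in 1 library, in microglia-like (left) and Müller glia-like cells (right). Orange and blue points are at least 2-fold higher or lower with an interval excluding 0, grey points neither, black ticks list medians and dashed lines the median of all genes. The hypoxia list lies farthest right, with medians of 1.68 and 0.85.

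Müller glia-like cells showed a different set. None of the 6 measured modification genes was 2-fold apart, with Fkbp14 at -0.97 and P3h4 at -0.42. Among 13 secretion and cross-linking genes Pcolce (2.43 and 30.8 CPM, log2 ratio 3.67), an enhancer of collagen trimming, and the lysyl oxidase relative Loxl2 (5.20 and 38.8 CPM, 2.90) were higher and Pcolce2 was lower (-1.06). Of 8 collagen chains Col4a1 was higher (1.69), and Col9a3 (-1.38), Col23a1 (-1.33) and Col9a1 (-1.29) were lower. Ero1l (2.53) was the 1 of 19 folding partners 2-fold apart, and Sil1 was lowest at -0.64. Of collagen-like proteins C1ql1 was higher (2.26) and Emid1 lower (-1.31). Egln3 (4.66) and Egln1 (1.17) were again higher, 4 of 14 hypoxia genes were higher with Adm at 4.81, and Tfrc (0.50) and Fth1 (0.49) were under 2-fold. The 11 Müller glia markers themselves summed to 15756 and 6603 CPM and rod markers to 23186 and 29999 CPM, and their part in the values was not tested.

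Across 16 points, 8 classes or states in each library, the genes fell into patterns, from the same counts as the plots of levels. Only groups with at least 50 cells in each library entered, so the Mmp12-led state (25 control cells) was left out. Microglia-like cells entered whole and again as the Tmem119-led, shallow and rod RNA states. Pearson correlations of log2(CPM + 1) are given as a description, since the points share libraries and cells. Plod3 and Col27a1 ran together (0.956), as did Plod1 and Col27a1 (0.903), all high in microglia-like cells. Plod2 and Serpinh1 (0.821) shared their height in Müller glia-like cells, and P4ha2 ran closer to Plod2 (0.738) than to P4ha1 (0.423). Of 9454 genes the one most like P4ha2 was Bnip3 (0.935), then Fn1 (0.911) and Sod1 (0.881). Genes close to P4hb were Cxcl2 (0.956) and Tnfaip2 (0.928), and those nearest to Plod2 were Bsg (0.931), Chpt1 (0.930) and Ptgds (0.928). Nearest to Col27a1 were Fam91a1 (0.982), Rab35 (0.981) and Pag1 (0.980), to Plod3 Tgfbr1 (0.992), Tagap (0.988) and Il10ra (0.988), and to Plod1 Fam217b (0.990), Glb1 (0.985) and Slc41a3 (0.974). Serpinh1 was nearest to Sept8 (0.955), C1qtnf6 (0.942) and Gpld1 (0.942). P4ha1 had no closer neighbour than Tcof1 (0.863), Bicra (0.848) and Iffo2 (0.841).

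The 8 genes lie apart in the genome (mm10), apart from pairs that share a chromosome. P4ha1 spans chr10:59323296-59373304, P4ha2 chr11:54100095-54131665 and P4hb chr11:120560298-120573253. The lysyl hydroxylases lie at chr4:147909753-147936767 (Plod1), chr9:92542223-92608428 (Plod2) and chr5:136987019-136996648 (Plod3). Serpinh1 spans chr7:99345376-99353239 and Col27a1 chr4:63214004-63334991. P4hb, Plod1 and Serpinh1 are on the minus strand. UMI counts of whole genes do not tell exons from introns here, and RefSeq starts can differ from the annotated gene ends.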

How the data were processed

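Droplet single-cell RNA-seq was made from 1 control and 1 OIR library. The deposited files are raw UMI counts per gene and barcode, made by the authors with Cell Ranger 3.0.2 on mm10 per the submitters' processing notes; the annotation release, kit and strand setting were not stated in any source at hand.

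Cells with at least 500 genes and at most 10% mitochondrial UMIs were kept (9454 and 6516). The doublet score's own limit marked 0 and 1 barcodes, so the top-scoring 938 and 424 were removed. Cells were clustered with scanpy 1.11.5 and igraph 0.11.9 (2000 variable genes without members and collagen lists, 30 components, Leiden resolution 1) and named from marker lists: at least 3 markers detected, and a mean log2 fold of at least 0.5 that leads the next class by 0.5, a limit set after the data were seen. A cluster led by Fabp7 and Prss56 (117 and 176 cells) scored 0.616 for cone and 0.600 for rod markers. That limit left it unnamed and so out of the cone-like cells. Microglia-like cells were clustered again at resolution 0.5. Counts were summed per class and library and scaled to CPM, with exact Poisson and conditional binomial intervals (scipy 1.17.1, 95%). A group with 0 UMIs was set to a floor of 3 counts. The calling rule was run on simulated counts with counting error only. That run cannot speak to variation between cells, mice or libraries.

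Members and lists were chosen with earlier results of these data known. Named from each list were the 3 genes with the largest ratio in microglia-like and the 2 in Müller glia-like cells, plus those counted as 2-fold apart where these were 5 or fewer (Pcolce2, Col23a1 and Col9a1, chosen after their values were seen), and likeness was ranked among genes with at least 20 CPM. Not every gene that these rules name is reported here. Where gene identifiers shared a symbol, the one with most UMIs was kept and the other 36 were dropped. Alternatives were other cell filters, doublets kept, resolution 0.5, all variable genes, another scaling, and single states.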

Additional observations from a re-analysis of the deposited data

Results flagged for a closer look

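A total of 3 genes had a ratio interval wholly above 0 in 1 cell class and wholly below 0 in another. The differences themselves were not tested, since each class has 1 library per group.

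P4ha1 had a log2 ratio of 0.38 in microglia-like cells and -0.78 in cone-like cells, a difference of 1.16. The microglia-like value changes sign without the Mmp12-led state.

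Plod3 had 0.60 in rod-like cells and -0.70 in microglia-like cells, a difference of 1.29. Over the alternatives, single states among them, the microglia-like value ran from -1.10 to 6.19e-05. Without the Edn2 and Fgf2-led and the Vax2os and Itga4-led rod clusters, which hold mostly OIR cells, the rod-like value was 0.29 and its interval (-0.12 to 0.68) included 0.

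Serpinh1 had 1.86 in rod-like cells and -0.37 in Müller glia-like cells, a difference of 2.22, and the rod-like value rests on 6 control and 13 OIR UMIs. Without the same rod clusters it rests on 6 and 5 UMIs, and the interval (-0.81 to 3.22) included 0.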

How the results depend on the processing

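In rod-like, cone-like, Müller glia-like and bipolar-like cells no ratio whose interval excluded 0 changed sign under another scaling, filter, clustering or doublet setting. In microglia-like cells the P4ha2 ratio stayed above 0 and that of Col27a1 below 0 under each alternative that gave a value (ranges 2.41 to 5.06 and -2.47 to -0.33). P4ha1, P4hb and Plod1 changed sign under some, and Plod3 ran from -1.10 to 6.19e-05. The stricter filter and keeping doublets left unnamed a cluster with Mmp12 and Spp1 among its leading genes (256 and 329 OIR cells), and with all variable genes such cells fell in a cluster named neutrophil (269 OIR cells), so these values cover other cells. No paired analysis was possible because each group has 1 library.

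With doublets kept, log2 ratios were -0.40 for P4ha1, 3.88 for P4ha2, -0.054 for P4hb, -0.30 for Plod1, 2.79 for Plod2 and -1.10 for Plod3. With all variable genes they were -0.010 for P4ha1, 3.39 for P4ha2, 0.11 for P4hb, 0.017 for Plod1, 2.81 for Plod2 and -1.86 for Col27a1. The stricter filter (at least 1000 genes, at most 5% mitochondrial UMIs), named again, gave 0.028 for P4ha1, 2.69 for P4ha2, 0.050 for P4hb, -0.37 for Plod3, 3.69 for Serpinh1 and -0.87 for Col27a1, with 4 and 2 UMIs of P4ha2 (-0.78 to 5.49) and 1 and 1 of Serpinh1 (-2.61 to 9.98), which show no direction. Cells with 3 or more UMIs of Spp1, Lgals3 and Mmp12 (19 and 323) gave 2.41 for P4ha2. Cells with fewer gave -0.12 for P4ha1, 2.70 for P4ha2, 0.14 for P4hb and -1.78 for Col27a1. Without the Mmp12-led state, a setting chosen after seeing the data, values were -0.45 for P4ha1, 3.70 for P4ha2, 0.37 for P4hb, -0.17 for Plod1, 2.86 for Plod2 and -2.03 for Col27a1.

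Within the Tmem119-led state they were -0.035 for P4ha1, 2.78 for P4ha2 (2 and 1 UMIs, -3.10 to 7.04), -0.093 for P4hb, 0.43 for Plod1, -0.26 for Plod3 and -0.81 for Col27a1. The shallow state gave -0.14 for P4ha1, 0.77 for P4hb and -0.33 for Col27a1 (2 and 3 UMIs, -3.46 to 3.25). The rod RNA state gave -0.0018 for P4ha1, 2.77 for P4ha2, 0.51 for P4hb, -0.18 for Plod1 and -1.91 for Col27a1. The Mmp12-led state gave 3.41 for P4ha2, 1.30 for P4hb, 6.19e-05 for Plod3 and -1.16 for Col27a1. States weighted alike gave 0.10 for P4ha1, 3.35 for P4ha2, 0.53 for P4hb, -0.32 for Plod3 and -1.01 for Col27a1. The cause of these shifts was not tested, apart from the cells each setting covers.

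At 5 CPM, 655 genes were higher and 542 lower in OIR microglia-like cells, with 2 collagen-like proteins higher, and at 50 CPM 182 were higher. Scaling by the median of ratios left 0 folding partners lower and moved the median of all genes by -0.08, in rod-like cells by 0.11. Low counts limit what can be said of Serpinh1 and Plod2 in microglia-like cells, and states where a gene had 0 UMIs in 1 library gave no value.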

Other observations

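Some genes of collagen trimming and cross-linking, picked here after their values were seen, were also 2-fold apart in rod-like, cone-like or bipolar-like cells. Pcolce read 2.26 CPM (38 UMIs) in control and 60.2 CPM (606 UMIs) in OIR rod-like cells, 4.74 on the log2 scale. It was among the leading genes of the Edn2 and Fgf2-led rod cluster. In cone-like cells it read 5.22 CPM in the control and 26.5 CPM in the OIR library, 2.34 on the log2 scale. Loxl2 stood at 1.09 CPM (3 UMIs) in control and 34.0 CPM (145 UMIs) in OIR bipolar-like cells, 4.96 on that scale (3.39 to 7.26). In the same bipolar-like cells the 3 collagen chains with enough counts were all higher in OIR, beside 1.39% of all genes measured there. They were Col23a1 (28.3 and 113 CPM, 1.99), Col4a1 (11.3 and 33.3 CPM, 1.56) and Col4a2 (15.6 and 35.6 CPM, 1.19). Col4a1 stood far higher in the unnamed cluster led by Cldn5 and Rgs5. Whether RNA from other cells added to these values was not tested. Col23a1 had a log2 ratio of -1.33 in Müller glia-like cells.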
